A study of Mus musculus with 19 samples.

Results

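A set of 10 genes, Trp53 and 9 targets through which p53 halts cell division, damps mTOR signalling or restrains itself, was measured in mouse liver after a polycyclic aromatic hydrocarbon. They were Cdkn1a, Ccng1, Gadd45a, Btg2 and Plk2 (arrest), Mdm2 and Trp53 (feedback), and Sesn1, Sesn2 and Ddit4 (stress). The members were all non-control probes whose RefSeq accession belongs to these 10 genes, which gave 11 probes of the 55681 on the array. All 10 genes had 1 probe bright enough in liver to be fitted, among 13812 named genes that did. Cdkn1a had a second probe that was not, and it is left out of the fits.

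The study exposed male mice, 10 weeks old, of the transgenic mouse strain 40.6 to dibenz[a,h]anthracene (DB[a,h]A) and took liver 3 days later. This strain is known as a mutation reporter that carries bacterial lacZ, and every group shared that background. There were 5 control animals at 0 mg/kg, 5 at 6.25, 4 at 12.5 and 5 at 25 mg/kg, with 1 array each, and the route and the schedule of exposure are not given in the sources used here. On each 2-colour array liver RNA was red (Cy5) and a purchased reference RNA from 11 mouse cell lines was green (Cy3), so a level is log2 of liver over reference. Levels are compared for 1 gene across animals, never between genes. The tissue is labelled as part of a liver, and fewer cells of a type cannot be told from less RNA per cell in such bulk samples.

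p53, encoded by Trp53, is a transcription factor that is stabilised when DNA is damaged, and its amount is set mostly by protein breakdown rather than by its messenger RNA. Its targets include Cdkn1a, whose product p21 blocks cyclin-dependent kinases, and Mdm2, the ubiquitin ligase that marks p53 for destruction and so closes a feedback loop. DB[a,h]A is known to be turned by liver enzymes into metabolites that bind DNA.

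The promoters of the genes on which the results turn are shown because p53 acts through a paired 10-base half-site. They come from RefSeq, build GRCm38.p6, from 250 bases before to 50 after a start site. Capitals mark matches to the p53 half-site consensus, a motif that reads the same on both strands. Cdkn1a has 2 windows, of which the one shown is chr17:29090729-29091028 (plus strand), and the other, chr17:29093519-29093818, held no match. The Ccng1 window is chr11:40755237-40755536 (minus strand), the Gadd45a window chr6:67037358-67037657 (minus strand) and the Mdm2 window chr10:117710709-117711008 (minus strand).
Cdkn1a: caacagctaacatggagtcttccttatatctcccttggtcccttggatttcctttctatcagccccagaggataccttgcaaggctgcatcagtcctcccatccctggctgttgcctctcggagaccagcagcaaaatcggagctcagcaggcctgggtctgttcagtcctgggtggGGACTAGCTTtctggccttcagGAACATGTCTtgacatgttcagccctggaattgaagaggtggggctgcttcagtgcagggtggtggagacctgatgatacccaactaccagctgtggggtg
Ccng1: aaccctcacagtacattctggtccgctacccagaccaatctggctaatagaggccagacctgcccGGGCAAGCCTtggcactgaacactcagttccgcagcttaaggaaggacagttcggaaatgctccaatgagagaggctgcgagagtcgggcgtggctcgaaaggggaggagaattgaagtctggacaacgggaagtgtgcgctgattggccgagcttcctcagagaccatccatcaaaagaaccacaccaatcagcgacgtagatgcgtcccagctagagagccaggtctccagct
Gadd45a: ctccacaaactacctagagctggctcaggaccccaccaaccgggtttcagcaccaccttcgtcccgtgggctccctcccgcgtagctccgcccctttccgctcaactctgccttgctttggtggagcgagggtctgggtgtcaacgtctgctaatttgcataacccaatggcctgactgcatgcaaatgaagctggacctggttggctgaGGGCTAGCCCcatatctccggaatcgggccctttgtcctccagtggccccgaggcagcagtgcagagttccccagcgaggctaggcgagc
Mdm2: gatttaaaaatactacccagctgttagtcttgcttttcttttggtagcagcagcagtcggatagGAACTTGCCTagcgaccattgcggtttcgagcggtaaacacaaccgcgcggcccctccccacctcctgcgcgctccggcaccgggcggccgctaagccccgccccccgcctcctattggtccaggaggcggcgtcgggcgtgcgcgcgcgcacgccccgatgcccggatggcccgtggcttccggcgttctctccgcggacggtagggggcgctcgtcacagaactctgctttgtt

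The half-site was found in 6 of the 12 windows of the 10 genes (50%) and in 8.36% of all 32851 RefSeq windows of that length. In the Cdkn1a window shown, the farther match began 73 bases before the start site, and a second followed after a spacer of 12 bases. Such a pair, with a spacer of at most 13 bases, was found in 0.0731% of all windows. Only full matches were marked. The 10 bases directly after the second Cdkn1a match differ from the consensus at 1 base and so stand in small letters. Which of these stretches p53 uses was not tested. The match lay 185 bases before the start in Ccng1, 186 in Mdm2, 40 in Gadd45a and 75 in Trp53, and 1 of the 2 Sesn1 windows held one 173 bases before its start. No match was found in the windows of Btg2, Plk2, Sesn2 and Ddit4. The windows of the 10 genes had a median G and C content of 64.7%, against 52.7% for all windows. These matches describe the letters of the windows, and no binding was measured. Sequence outside the windows was not searched, so a window without a match does not mean a gene without a site.

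Arrays sat on 3 slides, and slide 1 was scanned 7 days after the others. Slide 1 held 2 controls and 1 array of each dose, slide 2 held 2 arrays of every group, and slide 3 held 1 control, 2 arrays at 6.25, 1 at 12.5 and 2 at 25 mg/kg. The reference signal of Cdkn1a was 8140 to 11600 on slide 1, against 3120 to 4510 on slide 2 and 3250 to 3770 on slide 3. Mean log2 levels were lowest on slide 1 for 8 of the 10 genes, and highest there for Sesn2 and Ddit4. For this reason each change is given both without slide and with slide as a block in the fit. The share of spots with liver signal well above background was 39.7 to 56.3% per array at 25 mg/kg and 36.5 to 56.7% in controls. It averaged 39.8% ± 5.03 (SD, n = 4) at 12.5 mg/kg and 47.0% ± 7.90 (SD, n = 5) in controls. All 10 hepatocyte markers were above background on every array.

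**Figure D1:**
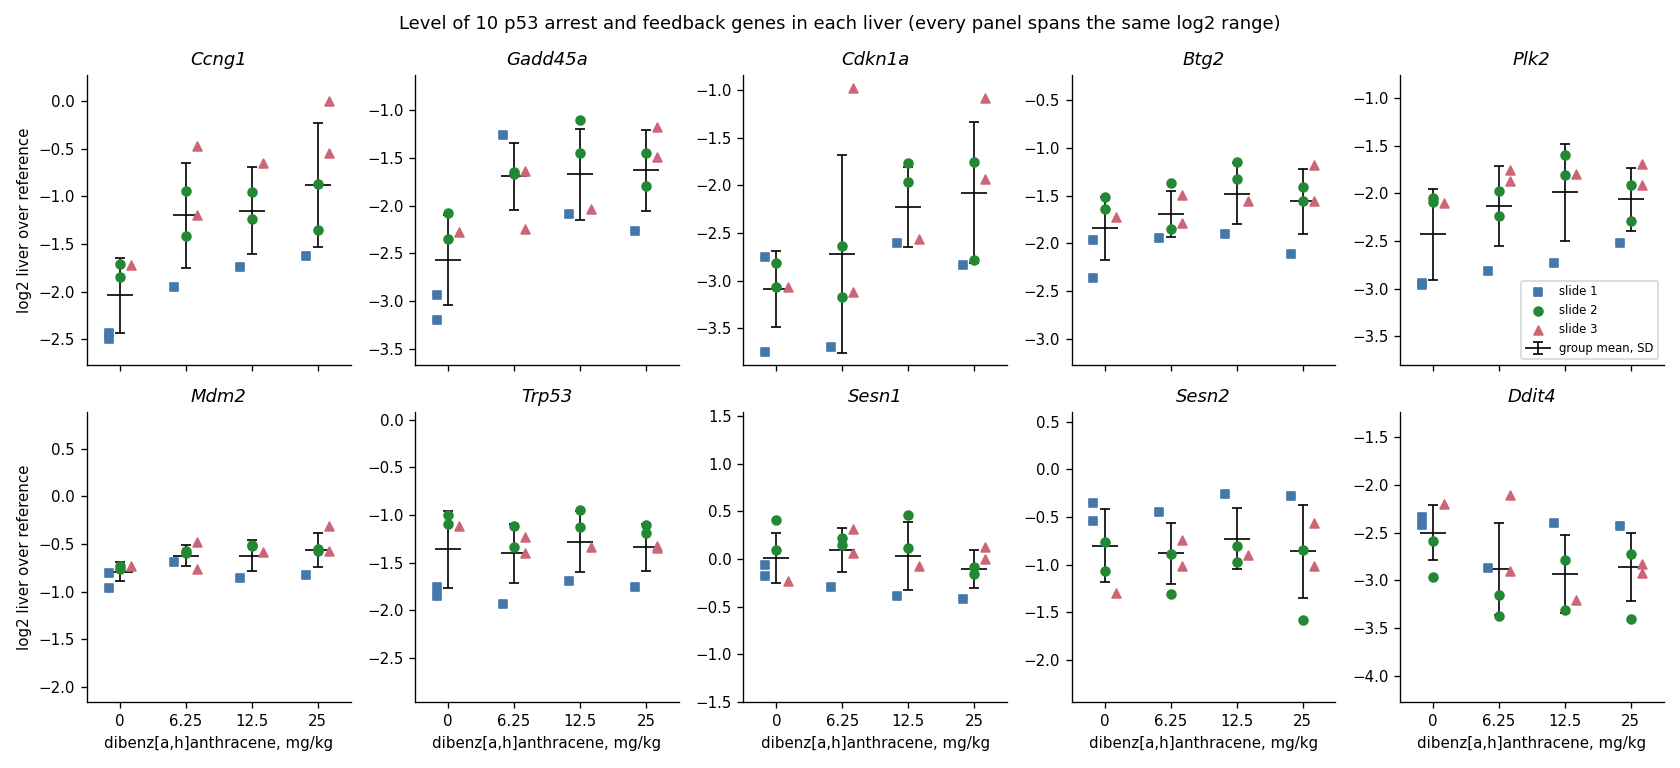
Each panel plots 1 gene, with dose in mg/kg across and the log2 liver over reference ratio up; points are animals, their shape and colour give the slide, and black bars are the group mean ± SD. Ccng1 and Gadd45a stand higher in exposed animals, slide 1 sits low for most genes, and 1 animal at 6.25 mg/kg reaches -0.98 for Cdkn1a.

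Of the 10 genes, Ccng1, Gadd45a and Cdkn1a had the largest differences from control at 25 mg/kg, between 1.91-fold and 2.24-fold without slide. None of the 10 passed an adjusted p of 0.05 there in limma, when 0.0578% of all probes did, and 4 had an unadjusted p under 0.05, which 7.37% of all probes had (with slide as a block 4, against 14.6%). Ccng1 rose 1.92-fold at 25 mg/kg with slide as a block, when 0.809% of all probes passed. No member passed at 12.5 mg/kg (0% of all probes, or 0.0068% with slide as a block) or at 6.25 mg/kg (0% in both fits). At an unadjusted p under 0.05 there were 2 of the 10 at 12.5 mg/kg (4.21% of all probes), or 4 with slide as a block (9.5%), and 2 at 6.25 mg/kg (5.57%, or 11.7% with slide as a block). The 3 comparisons share their controls. All tests of differences between doses were limma over 29415 probes, two-sided, with Benjamini-Hochberg adjustment.

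Ccng1 encodes cyclin G1, a p53 target that brings a phosphatase to Mdm2 and so strengthens the brake on p53. Its log2 level in controls was -2.50, -2.43, -1.85, -1.72 and -1.71. It was -1.95, -1.42, -1.20, -0.94 and -0.47 at 6.25 mg/kg, and -1.74, -1.24, -0.96 and -0.65 at 12.5 mg/kg. The 25 mg/kg animals had -1.63, -1.35, -0.87, -0.55 and 0.00. The 25 mg/kg animals all lay above all 5 controls, a separation that 1% of all probes showed, while the other 2 doses overlapped the controls. The lowest animal at each dose and the 2 lowest controls came from slide 1.

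Compared within slides, all 14 exposed animals lay above every control of their own slide for Ccng1, which 0.31% of all probes did. Slide 3 held only 1 control for this comparison. The 25 mg/kg animals exceeded the mean of their slide's controls by 0.83 on slide 1, by 0.43 and 0.91 on slide 2 and by 1.17 and 1.72 on slide 3. The smallest such excess of an exposed animal was 0.36, at 6.25 mg/kg on slide 2.

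The change in Ccng1 at 25 mg/kg was 1.16 ± 0.30 on the log2 scale (SE, adjusted p = 0.204) without slide. It was 0.94 ± 0.16 with slide as a block (95% confidence interval 0.61 to 1.28, adjusted p = 0.0151), rank 25 among the p-values of all probes. It was 0.83, 0.67 and 1.44 on slides 1, 2 and 3. At 6.25 and 12.5 mg/kg it was 0.63 (adjusted p = 0.187) and 0.78 (adjusted p = 0.154) with slide as a block. Without control replicate 1, the only control on slide 3, the change at 25 mg/kg was 0.82 with slide as a block and did not pass (adjusted p = 0.0695); it passed in the other 18 of 19 fits that left out 1 array.

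Genes of the circadian clock moved at the same dose. Of 19 measured clock genes 3 rose and 1 fell at 25 mg/kg without slide, and 8 rose and 3 fell with slide as a block. Dbp, a transcription factor driven by the clock, changed by 3.71 (adjusted p = 0.0129), Nr1d2 by 1.35 (adjusted p = 0.0129), Usp2 by 3.79 (adjusted p = 0.0129) and Nfil3 by -1.45 (adjusted p = 0.0396). The clock change was not confined to that dose. Dbp also passed at 12.5 mg/kg with slide as a block (3.65, adjusted p = 0.0257), but not without slide (3.52, adjusted p = 0.0661). At 6.25 mg/kg it passed in neither fit. It stood there at 2.83 with slide as a block (adjusted p = 0.0704) and at 2.71 without slide (adjusted p = 0.374). The part of these clock genes in the levels of Ccng1 was not tested.

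Gadd45a encodes a stress sensor that acts in growth arrest and DNA repair. Its log2 level in controls was -3.20, -2.94, -2.35, -2.28 and -2.08. It was -2.24, -1.67, -1.65, -1.64 and -1.26 at 6.25 mg/kg, and -2.09, -2.03, -1.45 and -1.10 at 12.5 mg/kg. The 25 mg/kg animals had -2.27, -1.79, -1.49, -1.45 and -1.17. Each dose overlapped the controls when slides were pooled, but like Ccng1 all 14 exposed animals lay above every control of their own slide. A share of 0.31% of all probes did so, and slide 3 held only 1 control. The smallest excess over the own-slide control mean was 0.05, against that control, and the largest 1.81, both at 6.25 mg/kg.

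The log2 change in Gadd45a was 0.88 ± 0.25 at 6.25, 0.90 ± 0.27 at 12.5 and 0.93 ± 0.25 at 25 mg/kg (SE, adjusted p = 0.808, 0.941 and 0.222). These became 0.81, 0.83 and 0.87 with slide as a block (adjusted p = 0.21, 0.274 and 0.0657). Its difference between 25 and 6.25 mg/kg was 0.06, with a 95% interval of -0.39 to 0.50 with slide as a block. On slides 1, 2 and 3 the change was 1.81, 0.56 and 0.34 at 6.25 mg/kg, 0.97, 0.94 and 0.26 at 12.5 mg/kg, and 0.80, 0.59 and 0.95 at 25 mg/kg. The 6.25 mg/kg value rested in part on replicate 5, the highest animal on slide 1, and was 0.49 without it with slide as a block.

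A contrast of the mean of the 3 doses with control was added after Ccng1 and Gadd45a were seen to stand high at every dose, so its values restate that observation and are no independent evidence. In the fit with the block it was 0.78 ± 0.13 for Ccng1 (SE, adjusted p = 0.0181) and 0.83 ± 0.18 for Gadd45a, whose adjusted p was just under the threshold and rounds to 0.05; 0.408% of all probes passed. Without slide the values were 0.97 (adjusted p = 0.248) and 0.90 (adjusted p = 0.149), and 0.0374% of all probes passed. Gadd45a was under the threshold in 5 of the 19 fits that left out 1 array, with adjusted p between 0.0255 and 0.148. Ccng1 was under it in 17 of 19, with adjusted p between 0.0088 and 0.114, and the change was lowest, 0.67, without control replicate 1.

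**Figure D2:**
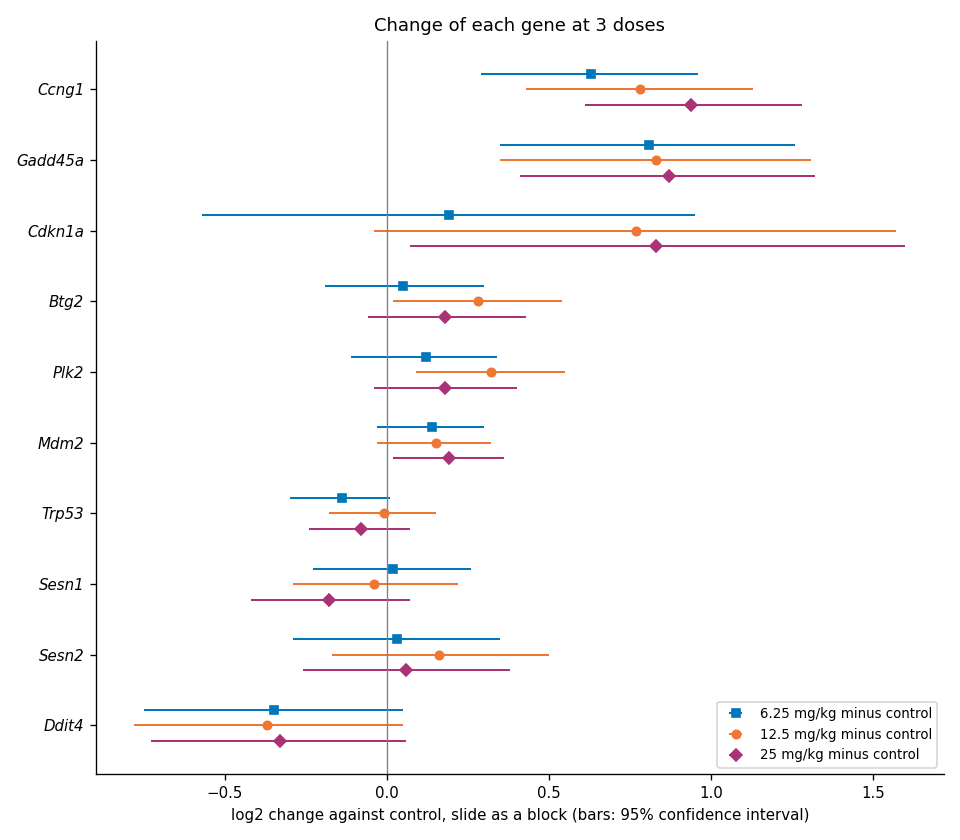
Points give the log2 change of each gene at 6.25, 12.5 and 25 mg/kg against control with slide as a block, and bars the 95% confidence interval, not adjusted for the number of probes. Ccng1 and Gadd45a have intervals wholly right of 0 at all 3 doses, the interval of Cdkn1a is the widest, and the intervals of Ddit4 include 0.

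Cdkn1a, the arrest gene with a paired match in 1 of its 2 promoter windows, differed most between animals. Its log2 level in controls was -3.75, -3.07, -3.07, -2.82 and -2.75. It was -3.70, -3.17, -3.12, -2.64 and -0.98 at 6.25 mg/kg, and -2.61, -2.56, -1.97 and -1.77 at 12.5 mg/kg. At 25 mg/kg it was -2.84, -2.78, -1.93, -1.76 and -1.09. All 4 animals at 12.5 mg/kg lay above all controls, a separation that 0.488% of all probes showed at that dose. Among the 25 mg/kg animals 2 lay within the control range, and at 6.25 mg/kg 2 animals, at -2.64 and -0.98, lay above all controls.

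The log2 change in Cdkn1a was 0.37 ± 0.41 at 6.25, 0.86 ± 0.43 at 12.5 and 1.01 ± 0.41 at 25 mg/kg (SE, adjusted p = 0.942, 0.999 and 0.558). These became 0.19, 0.77 and 0.83 with slide as a block (adjusted p = 0.876, 0.547 and 0.298). The 95% interval at 25 mg/kg with the block ran from 0.07 to 1.60, a fold of 1.05 to 3.03. Slides 1, 2 and 3 gave 0.41, 0.68 and 1.56.

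The array carries the Cdkn1a probe 10 times, and the spots of 1 array had a pooled SD of 0.11. They share extraction, labelling and hybridisation, so this is the noise within an array only. The SD between arrays of 1 slide, which includes the differences between doses, was 0.71. That SD was larger than for 99.2% of all probes, whose median was 0.17. The 6.25 mg/kg animal at -0.98 had spots between -1.07 and -0.91, and the 25 mg/kg animal at -1.09 had spots between -1.17 and -0.89. The first of these animals was also the highest of its group for Ccng1 (-0.47), Mdm2 (-0.48), Plk2 (-1.75) and Ddit4 (-2.10), but the lowest for Gadd45a (-2.24). The second was the highest at 25 mg/kg for Ccng1 (0.00), Mdm2 (-0.31) and Gadd45a (-1.17). It was also the highest for Btg2 (-1.18), Plk2 (-1.69) and Sesn1 (0.12), but not for Sesn2, Ddit4 or Trp53. These orders pool the slides, and some change with levels taken against the mean of the own-slide controls. The second animal was then the highest of its group for Sesn2 (0.74), but not for Plk2 (0.41, against 0.43 in replicate 5). The first was then the highest of its group for Sesn2 (0.55). Both arrays were on slide 3.

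**Figure D3:**
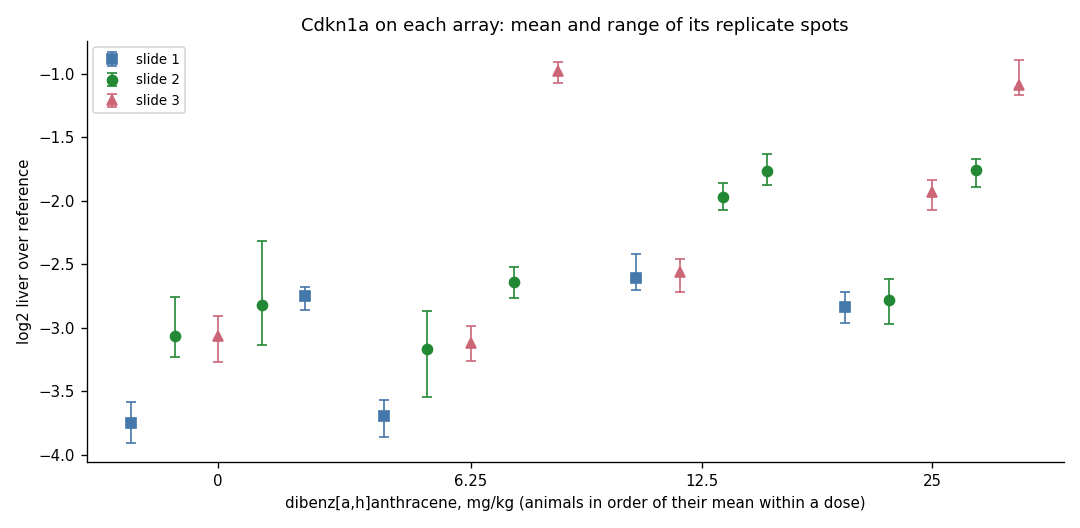
Each point is 1 animal, grouped by dose in mg/kg and ordered by level, with the mean log2 liver over reference ratio of the Cdkn1a spots; bars run from the lowest to the highest spot, and shape and colour give the slide. The bars are short beside the distance between animals of the same dose.

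Btg2 and Plk2 made up the rest of the arrest genes. Btg2, a co-regulator that slows division by promoting messenger RNA decay, had a log2 level of -2.36, -1.96, -1.72, -1.64 and -1.51 in controls. It was -1.94, -1.85, -1.79, -1.49 and -1.37 at 6.25 mg/kg, -1.90, -1.55, -1.32 and -1.15 at 12.5 mg/kg, and -2.11, -1.55, -1.55, -1.41 and -1.18 at 25 mg/kg. The groups overlapped throughout. Its change at 25 mg/kg was 0.28 ± 0.19 (SE, adjusted p = 0.823), or 0.18 with slide as a block (95% interval -0.06 to 0.43, adjusted p = 0.512). At 12.5 mg/kg it was 0.36 ± 0.20 (SE, adjusted p = 0.999), or 0.28 with slide as a block (95% interval 0.02 to 0.54, adjusted p = 0.485). At 6.25 mg/kg it was 0.15 (adjusted p = 0.946), or 0.05 with slide as a block (adjusted p = 0.894).

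Plk2 encodes a polo-like kinase of centrosome duplication. Its log2 level was -2.96, -2.94, -2.10, -2.09 and -2.05 in controls, and -2.81, -2.24, -1.97, -1.87 and -1.75 at 6.25 mg/kg. It was -2.73, -1.81, -1.80 and -1.60 at 12.5 mg/kg, and -2.52, -2.29, -1.91, -1.91 and -1.69 at 25 mg/kg. Its change was 0.36 ± 0.25 at 25 mg/kg (SE, adjusted p = 0.826), or 0.18 with slide as a block (95% interval -0.04 to 0.40, adjusted p = 0.463). With the block it was 0.09 without 25 mg/kg replicate 5 and 0.27 without replicate 4. At 12.5 mg/kg it was 0.32 with slide as a block (adjusted p = 0.379). All 4 animals at 12.5 mg/kg lay above every control of their own slide for Plk2, Btg2, Cdkn1a, Ccng1 and Gadd45a, as 3.77% of all probes did. Its liver signal was well above background on 16 of the 19 arrays, and not on control replicate 3 and 12.5 mg/kg replicates 3 and 4.

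Mdm2 varied little. Its log2 level in controls was -0.96, -0.80, -0.76, -0.73 and -0.73, and at 6.25 mg/kg -0.76, -0.69, -0.59, -0.57 and -0.48. It was -0.86, -0.58, -0.52 and -0.51 at 12.5 mg/kg, and -0.82, -0.57, -0.57, -0.55 and -0.31 at 25 mg/kg. Control and exposed animals overlapped at each dose, and 11 of 14 exposed animals lay above every control of their own slide. The share of all probes with such a count was not computed, and slide 3 held only 1 control. The change at 25 mg/kg was 0.23 ± 0.10 (SE, 1.17-fold, adjusted p = 0.616), or 0.19 ± 0.08 with slide as a block (adjusted p = 0.278). The 95% interval with the block ran from 1.01-fold to 1.28-fold and so lay just above no change. It was not adjusted for the number of probes. Slides 1, 2 and 3 gave log2 changes of 0.06, 0.19 and 0.29 at 25 mg/kg. The SD of Mdm2 between arrays of 1 slide, over all doses, was 0.12 and was larger than for only 13.7% of all probes.

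Trp53 itself did not pass in any dose comparison. Its log2 level in controls was -1.85, -1.75, -1.12, -1.09 and -1.0, and at 6.25 mg/kg -1.93, -1.40, -1.34, -1.23 and -1.11. It was -1.69, -1.33, -1.13 and -0.95 at 12.5 mg/kg, and -1.75, -1.35, -1.32, -1.19 and -1.10 at 25 mg/kg. The change at 25 mg/kg was 0.02 ± 0.19 (SE, adjusted p = 0.986), and -0.08 ± 0.08 with slide as a block (95% interval -0.24 to 0.07, adjusted p = 0.656). Its SD within a slide was 0.11, and 11 of 14 exposed animals lay below every control of their own slide. How many of all probes reach such a count was not computed, and slide 3 held only 1 control. Liver signal was well above background on 17 of the 19 arrays.

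Sesn1 and Sesn2 encode sestrins, which hold back the growth kinase mTORC1. The log2 level of Sesn1 in controls was -0.23, -0.18, -0.06, 0.09 and 0.41, against a range of -0.29 to 0.31 at 6.25, -0.39 to 0.46 at 12.5 and -0.42 to 0.12 at 25 mg/kg. That of Sesn2 ranged from -1.30 to -0.35 in controls, from -1.31 to -0.45 at 6.25, from -0.97 to -0.26 at 12.5 and from -1.58 to -0.28 at 25 mg/kg. Control and exposed animals overlapped for both genes at every dose. Sesn1 differed by -0.12 ± 0.16 and Sesn2 by -0.05 ± 0.23 at 25 mg/kg (SE, adjusted p = 0.905 and 0.973). The values were -0.18 (95% interval -0.42 to 0.07) and 0.06 (95% interval -0.26 to 0.38) with slide as a block.

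Ddit4, which also lowers mTORC1 activity and answers to glucocorticoids and to Atf4, stood lower after exposure without passing. Its log2 level in controls was -2.96, -2.59, -2.42, -2.34 and -2.20. It was -3.37, -3.15, -2.90, -2.87 and -2.10 at 6.25 mg/kg, -3.31, -3.21, -2.79 and -2.40 at 12.5 mg/kg, and -3.41, -2.92, -2.83, -2.72 and -2.43 at 25 mg/kg. Of 14 exposed animals 10 lay below every control of their own slide, but the pooled groups overlapped. Slide 3 held only 1 control, and the share of all probes with such a count was not computed. The change was -0.37 at 6.25, -0.42 at 12.5 and -0.36 at 25 mg/kg (adjusted p = 0.923, 0.999 and 0.81), and with slide as a block -0.35, -0.37 and -0.33 (adjusted p = 0.49, 0.583 and 0.444). Without 12.5 mg/kg replicate 1 the value of -0.37 became -0.19.

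No difference between the 3 doses passed for any of the 10 genes. Between 25 and 6.25 mg/kg the adjusted p was 0.859 for Ccng1 and 0.875 for Cdkn1a with slide as a block, and 1 for both without it. No member passed between any 2 doses, when 0% of all probes passed, or with slide as a block 0% and, between 12.5 and 6.25 mg/kg, 0.0034%. The linear trend per 25 mg/kg was 1.01 for Ccng1 (adjusted p = 0.414), or 0.83 with slide as a block (adjusted p = 0.0536). For Cdkn1a it was 1.01 (adjusted p = 0.64), or 0.88 with the block (adjusted p = 0.332). No member passed the trend, when 0.0204% of all probes did, or 0.241% with the block, though 3 had an unadjusted p under 0.05 (5.87% of all probes), or 4 with the block (10.8%). None passed the F test over the 3 doses, when 0.0102% of all probes did, or 0.0748% with the block.

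Some of the 10 genes varied together between animals once slide means were removed. Over the 19 arrays Pearson's r was 0.79 between Ccng1 and Mdm2, 0.74 between Ccng1 and Cdkn1a, 0.69 between Cdkn1a and Mdm2, and 0.61 between Ccng1 and Gadd45a. It was 0.22 between Cdkn1a and Gadd45a and -0.56 between Gadd45a and Ddit4. Trp53 stood between -0.48, with Mdm2, and 0.34, with Ddit4. These are descriptions over arrays that share dose groups and a reference.

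Outside the 10 genes, 13536 genes were ranked by the same correlation. Closest to Ccng1 were Atp8b5 (0.91), Cplane1 (0.89), Aen (0.88), Phlda3 (0.87) and Ring1 (0.85). Closest to Cdkn1a were Ephx1 (0.90), which encodes microsomal epoxide hydrolase, Ptpdc1 (0.81), and Ddias, Tnfrsf10b and Phlda3 (0.80 each). Aen, Tnfrsf10b and Phlda3 are themselves known p53 targets. Closest to Trp53 were Tbc1d10a (0.87), Trim68 (0.81), Tgif1 and Traf7 (0.79 each) and Paip2b (0.78).

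Other p53 targets, of cell death, repair and metabolism, gave a comparison for the 10 genes at 25 mg/kg. Of the 10 genes 7 were higher than control, with a median log2 change of 0.26, and 0 passed. Of the 29 other targets measured 25 were higher, with a median of 0.13. Over all probes 44.9% were higher, with a median of -0.02. With slide as a block the count was 7 of 10 (median 0.18) and 22 of 29 (median 0.10), against 46.8% of all probes (median -0.01).

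Among the other targets Aen, a nuclease induced by p53, rose by 1.02 ± 0.18 (SE, adjusted p = 0.0439) and was the only one to pass without slide. With slide as a block 3 rose: Aen (1.08, adjusted p = 0.00578), Zmat3, an RNA-binding protein (0.41, adjusted p = 0.0164), and Dglucy, a mitochondrial enzyme of D-glutamate (0.72, adjusted p = 0.0369). Phlda3, an inhibitor of Akt, stood at 0.73 (adjusted p = 0.108).

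At 12.5 mg/kg 9 of the 10 genes and 20 of the 29 other targets were higher than control, against 44% of all probes. With slide as a block the counts were 7 and 21, against 47.5%. At 6.25 mg/kg they were 7 and 22, against 46.7%, and with slide as a block 8 and 22, against 49%. No other target passed at these doses in either fit.

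The p53 regulators, such as kinases and partners of p53 and Mdm2, showed 10 of 21 higher at 25 mg/kg with a median of 0.00. Of these 0 passed in either fit. At an unadjusted p under 0.05 in limma there were 2 (7.37% of all probes), or 3 with slide as a block (14.6%). Among the regulators Atr stood at 0.29 (adjusted p = 0.556) and Mapk14 at 0.34 (adjusted p = 0.674). A further list of 20 measured genes held paralogues of the 10 genes and other cyclin-dependent kinase inhibitors. Of these 7 were higher, with a median of -0.06, and 0 passed in either fit. At an unadjusted p under 0.05 in limma there were 4 (7.37% of all probes), or 10 with slide as a block (14.6%). Btg3 stood at -0.68 (adjusted p = 0.265), Plk1 at -0.33 (adjusted p = 0.533), Btg1 at -0.52 (adjusted p = 0.611) and Plk3 at 0.82 (adjusted p = 0.673). The lists overlap, as Plk3 also counts among the other p53 targets and Plk1 among the cell division genes.

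**Figure D4:**
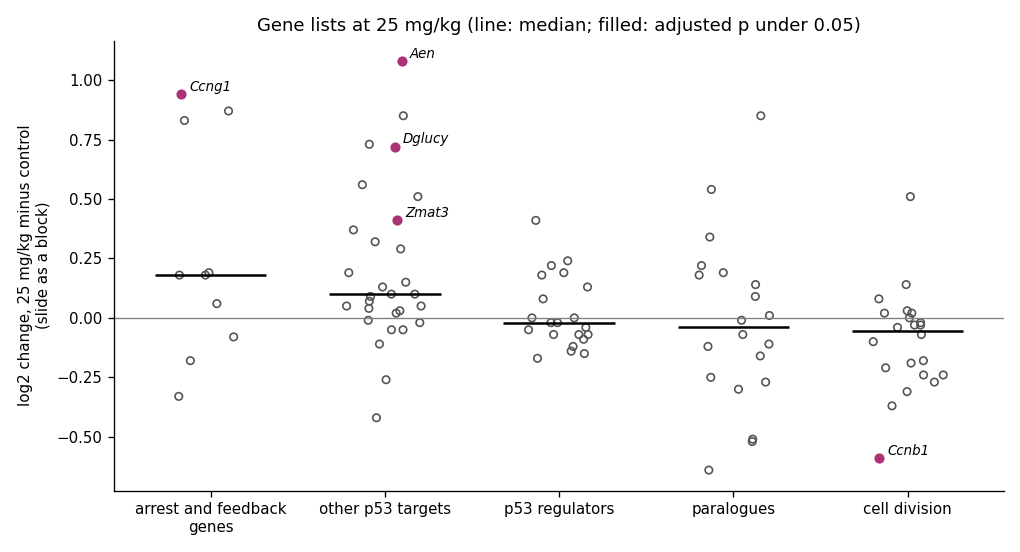
Each point is 1 gene, plotted by its list across and by its log2 change at 25 mg/kg against control up, with slide as a block; filled points passed an adjusted p of 0.05 and black lines are list medians. Ccng1 (0.94), Aen (1.08), Dglucy (0.72) and Zmat3 (0.41) are the filled points above 0, and Ccnb1 (-0.59) is the filled point below it. The list labelled paralogues also holds other cyclin-dependent kinase inhibitors.

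Cell division genes stood beside the arrest genes as a readout of proliferation. At 25 mg/kg 8 of 22 were higher, against 44.9% of all probes, with a median of -0.08, and 0 passed without slide. At an unadjusted p under 0.05 in limma there were 5 (7.37% of all probes), or 6 with slide as a block (14.6%). The block gave 1 that fell, the mitotic cyclin Ccnb1 (-0.59 ± 0.11, adjusted p = 0.0235), while Tk1, thymidine kinase, stood at 0.51 (adjusted p = 0.0999). At 12.5 mg/kg 19 of 22 were higher, against 44% of all probes, with a median of 0.22. At 6.25 mg/kg 5 of 22 were higher, against 46.7%, with a median of -0.06, and 0 passed at either dose. Arrays at 12.5 mg/kg had the lowest mean share of liver spots well above background (39.8%, against 47.0% in controls). The part of this in the counts was not tested.

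Sesn2 and Ddit4 are also targets of Atf4, the factor of the integrated stress response. Of 13 other genes of that response 1 was higher at 25 mg/kg (median -0.28), against 44.9% of all probes, and 0 passed without slide. At an unadjusted p under 0.05 in limma there were 4 (7.37% of all probes), or 6 with slide as a block (14.6%). The block gave 2 that fell: Atf5 (-0.98, adjusted p = 0.0244) and Ddit3 (-0.97, adjusted p = 0.0369). Of 15 glucocorticoid and FoxO targets 7 were higher (median -0.17), and of 13 immediate early genes 6 were higher (median -0.03), with 0 passing in either fit. At an unadjusted p under 0.05 in limma there were 4 of the 15 in each fit and 0 of the 13. Among the 15 were Fkbp5 at 0.76 (adjusted p = 0.266), Pdk4 at -1.28 (adjusted p = 0.272) and Igfbp1 at -2.05 (adjusted p = 0.478) without slide. With slide as a block Pdk4 stood at -1.40 (adjusted p = 0.0668).

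No marker of macrophages, lymphocytes, neutrophils, stellate cells, endothelium, bile duct, red cells, pancreas or fat passed at 25 mg/kg in either fit. The hepatocyte markers were lower than control in 10 of 10 cases (median -0.20), or 6 of 10 with slide as a block (median -0.05), and 0 passed. The median over 9 macrophage markers was -0.22, or -0.11 with slide as a block. The 5 measured bile duct markers were all lower, and their mean level after removal of slide means ranged from -0.32 to 0.11 at 25 mg/kg and from 0.06 to 0.19 in controls; 0 passed, and their part in the results above was not tested. Cxcr2, Mpo and Retnlg of neutrophils, Cd8a of lymphocytes, Cftr of bile duct, and Pnlip and Prss2 of pancreas were above background on no array.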

How the data were processed

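Liver RNA (200 ng per sample, amplified and labelled, per the labels' protocols) of 19 mice was measured on 2-colour Agilent arrays. The deposited scanner files hold red and green intensity as median pixel brightness, as Feature Extraction 10.7.3.1 wrote it, per the file headers. The authors' deposited table holds log2 ratios of liver over reference. How that table was made is not given in the sources used here, and it correlated across probes, at 0.993 to 0.996 per array, with loess ratios computed without background subtraction.

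Median signals were corrected with normexp (offset 50) and loess-normalised within each array in limma 3.58.1 under R 4.3.3. Control spots had weight 0, spots marked as outliers were left out, and replicate spots were averaged. Fitted probes had over 0.5 of their spots well above background in liver on at least 4 arrays, which left 29415 of 55681. The number of arrays limits the precision. Symbols came from RefSeq accessions.

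Groups followed the dose labels. Each sample number was taken as a separate animal, which the labels do not state, so p-values measure the spread between these samples. Changes were tested with lmFit and eBayes over all 19 arrays and adjusted by Benjamini-Hochberg, and the same fit with slide as a block stands beside them. Other settings changed the background correction, normalisation, filter, prior, weights and arrays used. A procedure of the same kind was run on simulated data with independent noise in each probe. Its outcome is not given here and lends the results no weight.

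Members and lists were chosen with earlier results of these data known. All 10 members are named, with up to 4 genes of smallest p at 25 mg/kg of each list described and the 5 genes most correlated with Cdkn1a, Ccng1 and Trp53. Genes named to account for a small count, and markers above background on no array, were chosen after their values were seen.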

Additional observations from a re-analysis of the deposited data

Results flagged for a closer look

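The second probe of Cdkn1a, which was left out of every fit, was well above background in liver on 2 of 5 arrays at 25 mg/kg, on 0 of 5 control arrays and on 0 arrays at the other doses. It was singled out because its signal passed background in exposed animals alone. Its log2 liver over reference ratio was -1.11 ± 0.17 (SD, n = 5) at 25 mg/kg and -1.25 ± 0.36 (SD, n = 5) in controls, and both lie near background. The 40 combinations of gene and dose group were examined for a single animal far from the rest by Dixon's test, and 0 stood out, including the Cdkn1a value of -0.98 at 6.25 mg/kg.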

How the results depend on the processing

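No paired analysis was possible because the labels repeat no sample number across groups, so the block is the slide. With slide as a block, 238 probes passed at 25 mg/kg (17 without it), 2 at 12.5 mg/kg (0), 22 for any dose (3), 71 for the trend (6), 1 between 12.5 and 6.25 mg/kg (0) and 120 for the mean of the 3 doses (11), and the members that passed were 1 at 25 mg/kg (0) and 2 for the mean of the 3 doses (0). At 25 mg/kg, 44 probes passed with scaling between arrays, 10 with no filter on dim probes, 33 with a trended robust prior, 135 with array weights (1 member, Ccng1, 1.23, adjusted p = 0.0492) and 48 with only the arrays compared. At 12.5 mg/kg, 2 passed with scaling, 3 with probes above background on all arrays and 6 with only the arrays compared, against 0. For any dose, 0 passed with no background subtraction, with the deposited ratios, with no filter and with probes above background on all arrays, 9 with the scanner software's processed signals and 11 with array weights. For the trend, 2 passed with the processed signals, 2 with no filter, 113 with array weights and 27 with dose as a rank, and 1 passed between 25 and 12.5 mg/kg with the processed signals. The liver channel without the reference, chosen after seeing the data, gave 26 probes at 25 mg/kg, and with slide as a block 2026 at 25, 2 at 12.5 and 70 at 6.25 mg/kg; with slide as a block it called 2 members at 25 mg/kg, Ccng1 (0.92, adjusted p = 0.0108) and Gadd45a (0.81, adjusted p = 0.0441). Why the probe counts moved was not tested.

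The sign turned for small changes that passed nowhere. Sesn2 at 25 mg/kg was 0.06 with slide as a block, 0.02 with array weights, and 0.03 in the liver channel alone (0.02 with slide as a block), against -0.05. There Trp53 was -0.08 with slide as a block, -0.05 with scaling and with array weights, and -0.17 in the liver channel (-0.14 with slide as a block), against 0.02. At 12.5 mg/kg Sesn1 was -0.04 with slide as a block and -0.01 in the liver channel (-0.04 with slide as a block), and Trp53 -0.01 with slide as a block. At 6.25 mg/kg Sesn2 was 0.03 with slide as a block, Trp53 0.00 with the processed signals, and in the liver channel Btg2 was -0.02 and Sesn1 -0.08 (-0.09 with slide as a block).

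Leaving out 1 array at a time, without and with slide as a block, gave 0 to 320 probes at 25 mg/kg, 0 to 15 at 12.5, 0 to 19 at 6.25, 0 to 102 for any dose, 0 to 263 for the trend, 0 to 1 between 25 and 6.25, 0 to 5 between 25 and 12.5, 0 to 3 between 12.5 and 6.25 mg/kg and 0 to 180 for the mean of the 3 doses. Members that passed numbered 0 to 2 at 25 mg/kg, 0 to 1 for any dose, 0 to 2 for the trend, 0 to 2 for the mean of the 3 doses and 0 elsewhere. In these fits Sesn2 ran from -0.20 to 0.21 at 25, -0.09 to 0.26 at 12.5 and -0.20 to 0.13 at 6.25 mg/kg, and Trp53 from -0.12 to 0.12, -0.05 to 0.22 and -0.18 to 0.09. Sesn1 ran from -0.14 to 0.16 at 12.5 and -0.10 to 0.19 at 6.25 mg/kg, and at 6.25 mg/kg Btg2 from -0.01 to 0.23 and Cdkn1a from -0.15 to 0.61, negative in the 2 fits without 6.25 mg/kg replicate 1. Ccng1 stayed between 0.82 and 1.35 at 25 mg/kg and Gadd45a between 0.75 and 1.09. Each gene had 1 fitted probe, so averaging probes changes no value, and Plk2 and Trp53 have none above background on all arrays. Few arrays, single animals on slides 1 and 3 and signal near background for Plk2 and Trp53 limit these results.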
